A study of Mus musculus with 6 samples.

Results

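Mitochondria of mouse marrow stromal cells were examined through 10 genes that divide and join these organelles, each matched by its symbol in a table of 53735 features. The division genes were Dnm1l, Fis1, Mff, Mief1, Mtfr1 and Mtfr2. The fusion genes were Mfn1, Mfn2 and Opa1. Oma1 encodes a protease that cuts the OPA1 protein and so limits fusion under stress. The study set out to learn what phagocytosis does to marrow stromal cells of this lineage. Wild-type marrow cells that lacked CD45, CD31 and blood lineage markers and carried CD51 were sorted, grown at 2% oxygen without ascorbic acid and used at passage 2 or 3. The 3 fed libraries came from wells given 5000000 dye-labelled apoptotic mouse thymocytes each for 24 h at 5% oxygen, and label-positive cells were collected by sorting. The 3 control libraries came from wells that received no thymocytes and were also sorted. As those wells held no dye-labelled cells, selection by label could apply only to fed cells. An effect of feeding and a prior difference in the cells that take up thymocytes cannot be told apart. The labels name no strain, age or number of animals, and the oxygen at which control wells spent the last 24 h is not stated there.

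Mitochondria form a network whose shape is set by opposing membrane events. In division, the cytosolic dynamin DRP1, encoded by Dnm1l, is drawn to the outer membrane by receptors such as MFF and MIEF1 and constricts the organelle. In fusion, MFN1 and MFN2 join outer membranes and OPA1 joins inner membranes, and cleavage of OPA1 by OMA1 under stress limits inner membrane fusion. Division also occurs before cell division, when mitochondria are shared out to the daughter cells. DRP1 and OPA1 are controlled to a large extent by phosphorylation and cleavage, which counts of RNA do not measure.

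Library totals ran from 19069074 to 22410047 counts, and the 10 genes together held 0.0558% to 0.0576% of the counts in control and 0.0584% to 0.0610% in fed libraries. All 9 stromal markers checked were detected, among them Itgav, which encodes CD51, at 289 ± 11.6 CPM (counts per 1000000 after TMM scaling, SD, n = 3) in control and 277 ± 16.4 CPM in fed libraries, and Lepr was low at 4.17 ± 0.446 and 3.83 ± 0.273 CPM. Of the 9, 5 fell (55.6%, against 19% of all genes tested) and 0 rose in fed libraries by the test described next. Those that fell were Pdgfra, Pdgfrb, Ly6a, Col1a2 and Col1a1, with log2 fold changes of -0.31, -0.29, -0.24, -0.19 and -0.12. The call of Col1a1 was lost in 4 of 14 alternative fits. Cxcl12 had a larger log2 fold change, -0.45, but did not pass (adjusted p = 0.0538). The number that fell was 4 with library totals only and 6 by DESeq2. The 12 thymocyte markers summed to between 0.417 and 0.896 CPM in control and between 0.644 and 1.45 CPM in fed libraries, with Cd3g, Ptcra and Rag2 at 0 in all 6. Most of the control sum was Lck, at 8, 11 and 15 counts in control and 7, 4 and 12 counts in fed libraries, and it was the 1 marker with enough counts to be tested (adjusted p = 0.269). Other thymocyte markers had more counts in fed libraries. Rag1 had 0, 2 and 1 counts in control and 7, 6 and 12 in fed libraries, and Dntt and Cd8b1, at 0 in all control libraries, had 5, 1 and 3 and 3, 2 and 2. With all genes of at least 1 count kept, 9 of the 12 were tested and 2 were called higher. Under that filter 2783 of all 23263 genes tested were called higher. The summed level of 9 macrophage markers was 9.54 to 10.8 CPM in control and 13.8 to 16.1 CPM in fed libraries, with Fcgr1 at 0 throughout. Lyz2, a lysozyme gene of myeloid cells, rose from 3.32 to 7.47 CPM (log2 fold change 1.17, adjusted p = 1.6e-06), while Csf1r, at 5.56, 5.67 and 6.11 CPM in control and 4.51, 5.75 and 5.95 CPM in fed libraries, did not pass (adjusted p = 0.596). C1qa and Adgre1, at 0 in all control libraries, had 7, 4 and 7 and 5, 3 and 3 counts in fed libraries. The summed level of 5 endothelial markers was 2.83 to 3.50 and 2.67 to 3.30 CPM, with Cdh5 and Emcn at 0 throughout. The part of these other cells in the results on the 10 genes was not tested. On the second principal component, control replicate 3 stood apart from the other control libraries.

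Mtfr2, Oma1, Mtfr1 and Mfn2 rose in fed libraries, while Dnm1l, Fis1, Mff, Mief1, Mfn1 and Opa1 did not pass the test. All 10 genes had enough counts to be tested. By edgeR's quasi-likelihood test with Benjamini-Hochberg adjustment over all 13092 genes, called at an adjusted p under 0.05, 4 of 10 rose and 0 fell. Among all genes tested 39.5% were called in either direction, 20.5% higher and 19% lower, so the number of changed members lies near the background. At an unadjusted p under 0.05 only Mief1 was lower, and DESeq2 and limma-voom also called 0 lower. The median log2 fold change was 0.03 over the 10 genes and -0.0066 over all genes tested, and the median size of the change, regardless of sign, was 0.07 and 0.16. In the plot of CPM by library, the fed libraries of Mtfr2, Oma1, Mtfr1 and Mfn2 lie above the control libraries, and those of Mief1 lie below them. Groups that do not overlap were thus seen for 5 of the 10, with fed libraries higher for 4 and lower for 1. Among all genes tested this held for 49.1%, with fed libraries higher for 25.1% and lower for 24%. In these bulk samples, a change in the share of cells that express a gene and a change in RNA per cell cannot be told apart.

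**Figure D1:**
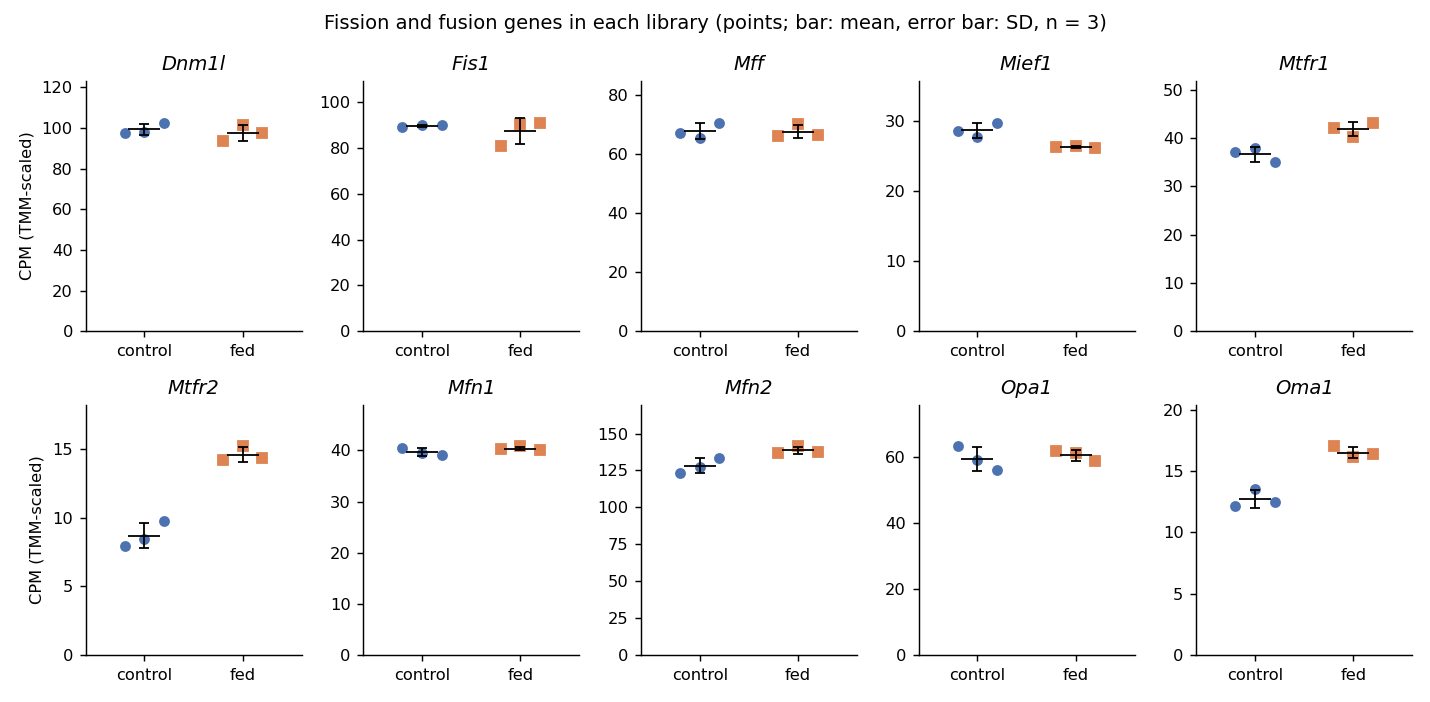
TMM-scaled CPM (y axis, from 0) of the 10 genes in the 3 control (circles) and 3 fed (squares) libraries, with the mean as a bar and the SD as an error bar. Mtfr2 moved from 8.71 to 14.6 CPM, while Dnm1l, Fis1, Mff, Mfn1 and Opa1 overlapped between the groups.

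Dnm1l, the dynamin that carries out division (GRCm38 chromosome 16, 16312230 to 16358959), had 97.4, 98.0 and 103 CPM in the control libraries and 93.8, 102 and 97.8 CPM in the fed libraries. The groups overlapped, with the lowest value in fed replicate 1 and the highest in control replicate 3. Its log2 fold change was -0.02 ± 0.041 (SE, adjusted p = 0.692). The 95% interval of the change in Dnm1l mRNA ran from -7.20% to 4.45%.

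Among receptors that bring DRP1 to the outer membrane, Fis1, Mff and Mief1 did not pass the test. Fis1, a small tail-anchored outer membrane protein (chromosome 5, 136953275 to 136966234), had 89.3, 89.9 and 90.0 CPM in control and 81.0, 90.7 and 91.1 CPM in fed libraries. Only fed replicate 1 was low, and without it the log2 fold change of Fis1 turned from -0.03 to 0.02. Mff, the main receptor in many cell types (chromosome 1, 82724890 to 82752394), had 67.4, 65.5 and 70.7 CPM in control and 66.3, 70.2 and 66.7 CPM in fed libraries. Its groups overlapped, the change was bounded between -6.30% and 6.36%, and the adjusted p was 0.968. Mief1, also known as MiD51 (chromosome 15, 80234018 to 80253371), had 28.5, 27.6 and 29.7 CPM in control and 26.3, 26.4 and 26.1 CPM in fed libraries. All fed libraries of Mief1 lay below all control libraries. Its log2 fold change of -0.12 ± 0.057 had an unadjusted p of 0.0436 and an adjusted p of 0.0949, and thus missed the threshold. Exons of Mief1 share 213 bases with AC140267.1 on the same strand, those of Mff share 195 bases with C430014B12Rik on the opposite strand and those of Dnm1l share 243 bases with Gm49521 on the opposite strand. These 3 genes are less certain because of the overlaps. Whether the counting used strand is not stated in the sources used here. Use of strand would separate the overlaps of Mff and Dnm1l, but not that of Mief1.

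Mtfr1 and Mtfr2 encode related mitochondrial proteins that promote division, and both rose. Mtfr2 (chromosome 10, 20347770 to 20361304) had 7.92, 8.45 and 9.75 CPM in control and 14.2, 15.2 and 14.4 CPM in fed libraries, from 171 to 185 counts and from 287 to 331 counts. The lowest fed library stood well above the highest control library, which was control replicate 3. The rise was 1.68-fold (95% interval 1.49 to 1.91), or 0.75 ± 0.087 on the log2 scale (adjusted p = 8.1e-07). Only 3.23% of all genes tested had a larger change in either direction. Mtfr1 (chromosome 3, 19187327 to 19220817) had 37.1, 37.9 and 35.0 CPM in control and 42.1, 40.3 and 43.2 CPM in fed libraries. Its groups did not overlap, but the rise was small, at 14.1% (95% interval 5.85% to 23.0%, log2 fold change 0.19 ± 0.052, adjusted p = 0.00615). Among all genes tested, 43.3% had a larger change than Mtfr1.

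Sequence upstream of Mtfr2 is shown because this gene rose most, beside that of Opa1, which did not pass, and Oma1, which rose. RefSeq windows on GRCm38.p6, from 250 bases before to 50 bases after a start site, were found for 9 of the 10 genes, with 14 windows in all. Capitals mark matches, on either strand, to motifs of 6 kinds. TTTGAA is a form of the CHR element of cell cycle genes, and other forms were not searched for. TTTNNCGC is a form of the site of E2F factors. CCAAT is bound by NF-Y. CCGGAAG is a core of sites for ETS factors such as GABPA. CGCATGCG is the core of sites for NRF1. TGACGTCA is the cyclic AMP response element, or CRE. No matches overlap in the sequences shown. The window of Mtfr2 is chr10:20347569-20347868 on the plus strand, that of Opa1 chr16:29579084-29579383 on the plus strand and that of Oma1 chr4:103313596-103313895 on the plus strand.
Mtfr2: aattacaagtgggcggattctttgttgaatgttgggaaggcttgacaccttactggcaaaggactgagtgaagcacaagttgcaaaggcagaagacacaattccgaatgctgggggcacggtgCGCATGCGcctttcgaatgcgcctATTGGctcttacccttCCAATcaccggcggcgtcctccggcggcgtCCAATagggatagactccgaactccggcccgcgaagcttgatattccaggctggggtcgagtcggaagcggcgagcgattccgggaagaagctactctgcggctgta
Opa1: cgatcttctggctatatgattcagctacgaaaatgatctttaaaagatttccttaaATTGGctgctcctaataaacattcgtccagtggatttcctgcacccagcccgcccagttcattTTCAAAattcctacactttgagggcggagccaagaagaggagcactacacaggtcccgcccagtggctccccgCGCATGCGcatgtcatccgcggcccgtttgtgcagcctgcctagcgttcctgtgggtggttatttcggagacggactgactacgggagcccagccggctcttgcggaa
Oma1: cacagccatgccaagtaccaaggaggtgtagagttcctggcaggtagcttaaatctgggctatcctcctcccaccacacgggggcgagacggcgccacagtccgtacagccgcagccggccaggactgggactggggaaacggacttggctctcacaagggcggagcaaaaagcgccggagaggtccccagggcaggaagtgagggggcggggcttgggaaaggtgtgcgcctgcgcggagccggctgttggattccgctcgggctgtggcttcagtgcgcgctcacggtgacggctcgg

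The Mtfr2 window held 3 CCAAT matches, at positions -103, -87 and -57 relative to the start site, and the NRF1 letters at -127. The NRF1 letters were also found in the Opa1 window, at -58, and in no window of the other genes. They occur in 1.87% of the 32851 windows of this length in the table, against 37.4% for CCAAT and 17.9% for the CHR letters. Opa1 and Mfn1 held the CHR letters TTTGAA on either strand and Mtfr2 did not. Whether the Mtfr2 window holds another form of CHR was not examined. No window of the 9 genes held the E2F or CRE letters, which occur in 5.17% and 1.79% of all windows, and that of Oma1 held none of the 6. The ETS letters, in 8.86% of all windows, were found in windows of Dnm1l, Fis1, Mief1 and Mfn1, genes that did not pass the test. A match is only a match of letters.

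Of the outer membrane fusion genes, Mfn2 rose by a small amount and Mfn1 did not pass the test. Mfn1 (chromosome 3, 32529465 to 32579239) had 40.5, 39.4 and 39.1 CPM in control and 40.2, 40.8 and 40.1 CPM in fed libraries. The groups overlapped, and the change was bounded between -5.10% and 9.05% (adjusted p = 0.712). Mfn2, which also tethers mitochondria to the endoplasmic reticulum (chromosome 4, 147873599 to 147904704), had 123, 127 and 134 CPM in control and 137, 141 and 138 CPM in fed libraries. All fed libraries lay above control replicate 3, the highest control library, by a narrow margin. The rise of 8.31% (95% interval 2.39% to 14.6%, adjusted p = 0.0234) did not hold in 4 of the 14 alternative fits. The adjusted p of Mfn2 was 0.0597 by DESeq2, and it was 0.109, 0.0864 and 0.0977 when control replicate 1, control replicate 2 and fed replicate 2 were left out in turn. Whether Mfn1 and Mfn2 responded differently was not tested.

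At the inner membrane, the protease gene Oma1 rose, and Opa1, the gene of its substrate, did not pass the test. Opa1 (chromosome 16, 29579334 to 29654884) had 63.3, 59.0 and 56.1 CPM in control and 62.0, 61.1 and 58.8 CPM in fed libraries. The fed values all lay within the control range, and the change was bounded between -4.98% and 9.17% (adjusted p = 0.692). Oma1, the stress-activated metalloprotease (chromosome 4, 103313812 to 103371868), had 12.1, 13.6 and 12.4 CPM in control and 17.0, 16.1 and 16.4 CPM in fed libraries. No fed library came near the highest control library, control replicate 2. Oma1 rose 1.30-fold (95% interval 1.17 to 1.44, log2 fold change 0.37 ± 0.073, adjusted p = 0.000352), and 17.6% of all genes tested had a larger change.

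Ratios of counts within a library need no scaling between libraries and are given as a description, with no test. The ratio of Oma1 to Opa1 counts was 0.192, 0.230 and 0.222 in control and 0.274, 0.263 and 0.279 in fed libraries, a mean 1.27 times as high. The ratio of Mtfr1 to Mtfr2 counts was 4.68, 4.49 and 3.59 in control and 2.96, 2.65 and 3.00 in fed libraries. The groups did not overlap for either ratio. That of Mtfr2 to Dnm1l counts moved from 0.0875 ± 0.0069 to 0.150 ± 0.0022 (SD, n = 3). The ratio of Mfn2 to Mfn1 counts was 3.05, 3.23 and 3.42 in control and 3.41, 3.46 and 3.43 in fed libraries, with fed replicate 1 just under control replicate 3. Counts of Dnm1l to Opa1 stood at a ratio of 1.68 ± 0.145 in control and 1.61 ± 0.0868 in fed libraries. The fusion genes Mfn1 and Mfn2 are not part of that ratio. Counts of Fis1 to Mff stood at a ratio of 1.32 ± 0.0502 and 1.29 ± 0.0712. Both the Dnm1l to Opa1 and the Fis1 to Mff ratio overlapped between the groups.

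**Figure D2:**
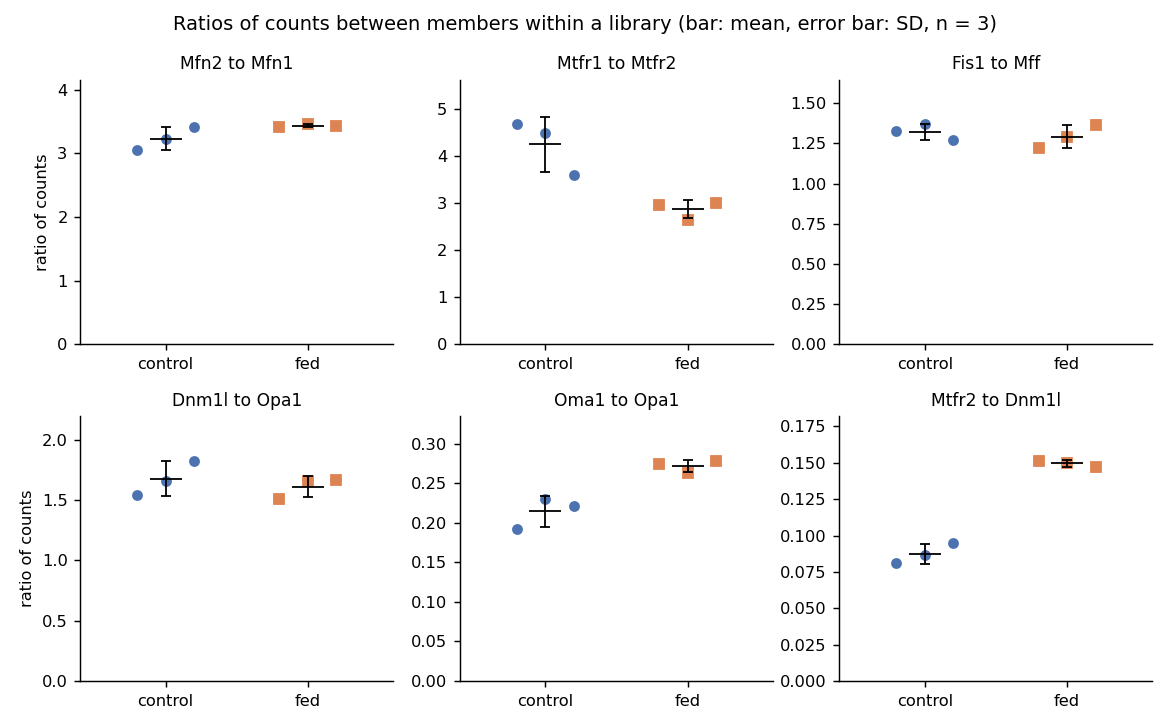
Ratio of raw counts of named gene pairs within each library (y axis, from 0), for 3 control (circles) and 3 fed (squares) libraries, with the mean as a bar and the SD as an error bar. Oma1 to Opa1, Mtfr1 to Mtfr2 and Mtfr2 to Dnm1l separate the groups, and Mfn2 to Mfn1, Fis1 to Mff and Dnm1l to Opa1 overlap.

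Levels of different genes can be set side by side only per length. In CPM per kb of annotated exon (the union of exons in GENCODE M21), Fis1 was highest in control libraries at 52.4 ± 0.200, followed by Mfn2 at 24.6 ± 0.979 and Dnm1l at 19.1 ± 0.545. Mtfr1 (8.39 ± 0.348), Opa1 (7.55 ± 0.457) and Mff (6.96 ± 0.271) came next, and each overlapped its neighbour in that order. Mfn1 at 6.49 ± 0.120 and Oma1 at 5.93 ± 0.348 followed, and Mtfr2 at 4.07 ± 0.438 and Mief1 at 3.53 ± 0.129 were lowest. In fed libraries Oma1 reached 7.69 ± 0.215, close to Opa1 at 7.70 ± 0.213, and Mtfr2 reached 6.83 ± 0.248, above Mfn1 at 6.60 ± 0.0596. The order depended on the length used, most of all for Mff. Its exon union of 9.757 kb holds long alternative exons, and by its longest coding transcript of 2.087 kb its control level was 32.5 ± 1.27 CPM per kb, second to Fis1 at 94.7 ± 0.361. On that length Mtfr2 was lowest in control at 4.37 ± 0.470, under Mief1 at 5.56 ± 0.203, and in fed libraries the mean of Mtfr2 was 7.34, below Mfn1 at 8.85, and that of Oma1 was 8.61, below Opa1 at 9.73. That length was tried after the data had been seen.

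**Figure D3:**
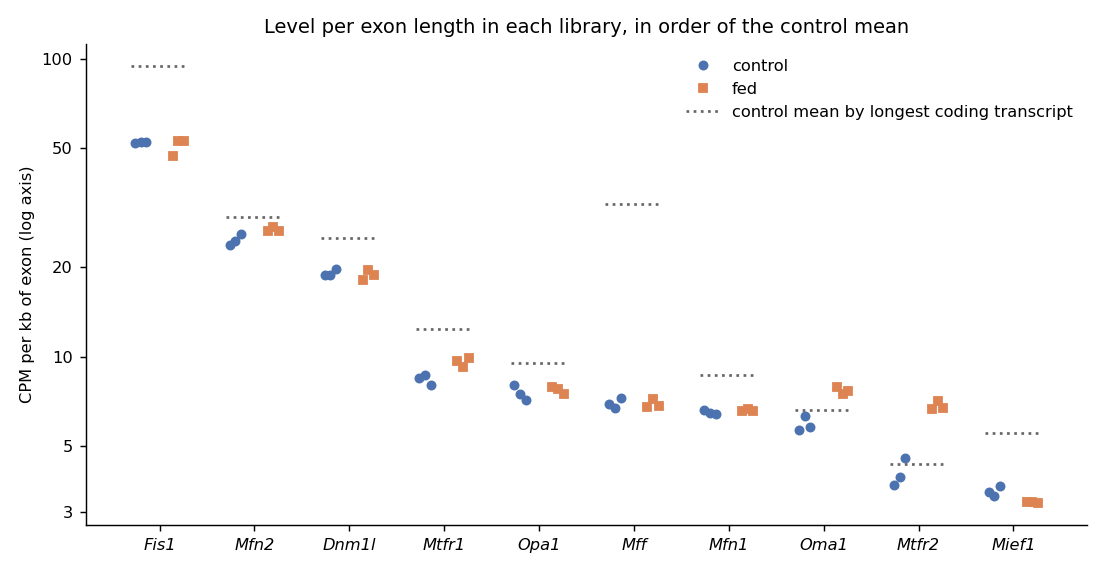
CPM per kb of exon (log axis) of each gene in 3 control (circles) and 3 fed (squares) libraries, ordered by control mean, with dotted lines for the control mean by the longest coding transcript. Fis1 lies highest on both lengths, Mff moves from 6.96 to 32.5 CPM per kb between them, and Mtfr2 and Oma1 are the genes whose fed points lie farthest above their control points.

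Mtfr2 rose in fed libraries, as did most of the markers of dividing cells that were checked. The markers Mki67 and Cenpf did not pass (adjusted p = 0.177 and 0.206). Of 10 such markers, 8 rose (80%, against 20.5% of all genes tested) and 0 fell by edgeR (0 also at an unadjusted p under 0.05, by DESeq2 and by limma-voom), with a median log2 fold change of 0.58, against 0.75 for Mtfr2. The number that rose was 9 by DESeq2 and by limma-voom, 10 with the replicate number as a block, and 8 with library totals only. The summed level of the 10 markers was 1251 to 1265 CPM in control and 1730 to 1828 CPM in fed libraries. Per 1000 counts of these markers, Mtfr2 had 6.26, 6.74 and 7.79 counts in control and 7.81, 8.33 and 8.32 in fed libraries. On this scale the groups nearly met, at control replicate 3 and fed replicate 1, and the mean was 1.18 times as high in fed libraries. The mitotic kinase gene Cdk1, measured in the same way against the other markers, was 1.15 times as high. Oma1 per 1000 marker counts was 0.91 times its control mean and Dnm1l 0.69 times. The part of cell division in the rise of Mtfr2 was not tested.

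**Figure D4:**
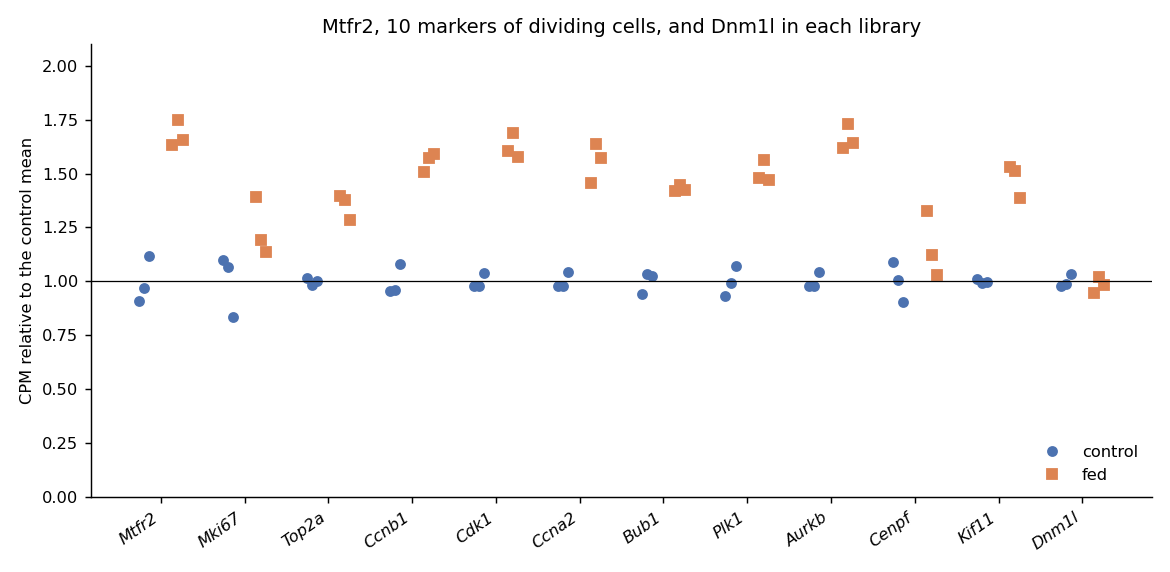
CPM relative to the control mean (y axis, from 0) of Mtfr2, of 10 markers of dividing cells and of Dnm1l, in 3 control (circles) and 3 fed (squares) libraries. Fed points of Mtfr2 lie as high as those of Cdk1 and Aurkb, and those of Dnm1l lie around the control mean.

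The genes whose log2 CPM followed Mtfr2 most closely over the 6 libraries were, among 10134 genes that averaged 5 CPM or more, Ercc6l, Cdca8, Clns1a, Naa15 and Pgp. Ercc6l encodes a helicase and Cdca8 a subunit of the chromosomal passenger complex, both of mitotic chromosomes. Their Pearson correlations with Mtfr2 were between 0.9987 and 0.9996, given as a description, since the libraries fall into 2 groups and 997 genes had a correlation over 0.95. Ercc6l had 28.6, 30.8 and 34.8 CPM in control and 50.9, 53.5 and 51.6 CPM in fed libraries, with the same order of libraries within each group as Mtfr2. Its log2 fold change was 0.73, and those of Cdca8, Pgp, Naa15 and Clns1a were 0.56, 0.41, 0.18 and 0.15.

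Among other genes of mitochondrial division, Inf2 and Spire1, which act on actin, rose. Of 9 listed, 8 were tested, and 3 rose (37.5%, against 20.5% of all genes tested). Called in either direction were also 37.5%, against 39.5% of all genes tested. In this list 0 fell (0 also at an unadjusted p under 0.05, by DESeq2 and by limma-voom). The median log2 fold change was -0.01. Inf2, a formin that builds actin at contacts with the endoplasmic reticulum, had 200, 193 and 191 CPM in control and 223, 219 and 211 CPM in fed libraries, a log2 fold change of 0.16 (adjusted p = 0.00149). Spire1, an actin nucleator whose mitochondrial form acts with INF2, rose by 0.15 (adjusted p = 0.0108, and 0.0740 without control replicate 2). Mief2, the other MiD receptor, rose by 0.21 on the log2 scale with an adjusted p of 0.0492, against 0.0949 for the lower level of Mief1. The call of Mief2 was lost in 10 of 14 alternatives, with adjusted p-values up to 0.180 by DESeq2, and held without control replicate 2 but not without any other library (0.0608 to 0.156). Mtfr1l, a further gene of the Mtfr1 family, stayed uncalled at a log2 fold change of -0.04 (adjusted p = 0.454).

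Of 13 other genes of fusion, mitofusin turnover and OPA1 processing, 12 were tested, and 4 rose (33.3%, against 20.5% of all genes tested). Called in either direction were also 33.3%, against 39.5% of all genes tested. In this list 0 fell (0 also at an unadjusted p under 0.05, by DESeq2 and by limma-voom). The median of the log2 fold changes was 0.08. The prohibitin gene Phb2, a scaffold of the inner membrane that shields OPA1 from OMA1, had 112, 123 and 122 CPM in control and 134, 140 and 143 CPM in fed libraries (log2 fold change 0.23, adjusted p = 0.000225). Miga2, an outer membrane protein that promotes fusion and is listed in the table under its older symbol Fam73b, had 20.2, 19.6 and 20.0 CPM in control and 26.2, 23.7 and 25.4 CPM in fed libraries (log2 fold change 0.33, adjusted p = 0.000248). In neither gene did the groups overlap. Phb and the protease gene Afg3l2 rose by 0.18 and 0.14. For Phb the adjusted p was 0.0847 by DESeq2, and 0.160, 0.0645 and 0.148 when control replicate 1, control replicate 2 and fed replicate 2 were left out in turn. For Afg3l2 it was 0.0761 by DESeq2, and 0.0786, 0.0548 and 0.0557 when control replicate 2, control replicate 3 and fed replicate 1 were left out in turn. The number higher was therefore 2 by DESeq2 and without control replicate 2. Yme1l1, which encodes the other protease that cuts OPA1, stayed uncalled at -0.05 (adjusted p = 0.299).

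Among genes whose products act on the DRP1 protein or on MFF, mitotic kinases rose. Of 15 tested, 6 rose and 1 fell (46.7% called, against 39.5% of all genes tested), with a median log2 fold change of 0.10. Cdk1 and Ccnb1 of this list are also among the 10 markers of dividing cells, so their rises are the same observations. Cyclin-dependent kinase 1 with cyclin B phosphorylates DRP1 in mitosis, and AURKA acts on DRP1 through RALA. Cdk1 had 117, 117 and 124 CPM in control and 192, 202 and 189 CPM in fed libraries. Aurka and Ccnb1 rose by 0.67 and 0.64 on the log2 scale (adjusted p = 1.1e-09 and 2.3e-09). Rala, a link between AURKA and DRP1, was at 0.10 on the log2 scale and did not pass (adjusted p = 0.140). The groups of Cdk1 were far apart. Pgam5, a mitochondrial phosphatase that acts on DRP1, had 26.8, 27.0 and 26.3 CPM in control and 34.4, 32.4 and 34.6 CPM in fed libraries (log2 fold change 0.34, adjusted p = 5.0e-05). Akap1, which anchors protein kinase A at the outer membrane, rose by 0.18 (adjusted p = 0.00278), and Prkaa2, an AMPK catalytic subunit that was low at 1.33 CPM in control and 2.44 CPM in fed libraries, by 0.88 (adjusted p = 0.000979). The gene of this list that fell was Ppp3ca, a catalytic subunit of calcineurin, which frees DRP1 for division. It had 92.4, 84.6 and 81.1 CPM in control and 77.4, 77.0 and 76.3 CPM in fed libraries (log2 fold change -0.16, adjusted p = 0.0071, and 0.0596 without control replicate 1). Cdk5, Prkaca, Prkaa1, Mapk3, Ppp3cb, Senp3 and Senp5 did not pass.

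**Figure D5:**
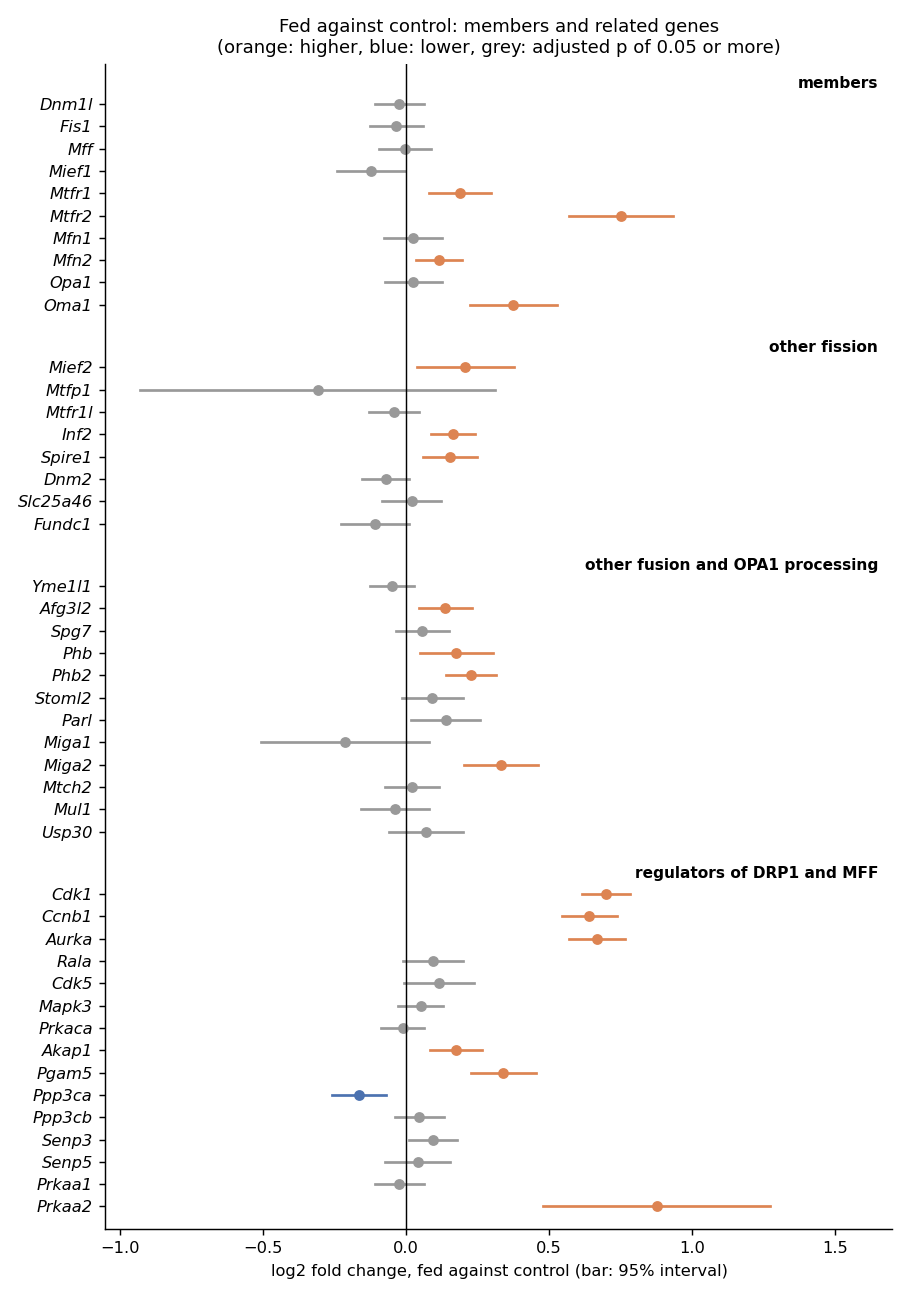
Log2 fold change of fed against control (x axis) with its 95% interval, for the 10 members and for tested genes of 3 related lists. Orange marks genes called higher, blue those called lower and grey those with an adjusted p of 0.05 or more. Among the members Mtfr2 lies farthest from 0, and Cdk1, Ccnb1, Aurka and Prkaa2 lie at similar values.

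Genes that move mitochondria along the cytoskeleton changed in single cases. Of 10, 9 were tested, 1 rose and 2 fell (33.3% called, against 39.5% of all genes tested), with a median log2 fold change of 0.04. Myo19, the myosin that distributes mitochondria in dividing cells, had 14.9, 14.5 and 14.8 CPM in control and 19.1, 20.5 and 21.1 CPM in fed libraries (log2 fold change 0.46, adjusted p = 1.7e-05). Armcx1, an outer membrane protein of mitochondrial transport, had 20.8, 20.4 and 20.2 CPM in control and 13.3, 13.2 and 12.0 CPM in fed libraries (log2 fold change -0.68, adjusted p = 1.7e-07). These groups did not come near each other. The other that fell was Armcx2, by 0.11 on the log2 scale, a call that failed in 6 of 14 alternatives. Leaving out control replicate 3, fed replicate 1 and fed replicate 3 in turn gave Armcx2 adjusted p-values of 0.0610, 0.0519 and 0.0657, and library totals only gave 0.0988. The Miro genes Rhot1 and Rhot2 and the adaptors Trak1 and Trak2 did not pass.

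Genes of mitochondrial biogenesis and mass give the setting in which the 10 genes were read. Of 16, 14 were tested, and 4 rose (28.6%, against 20.5% of all genes tested). Called in either direction were also 28.6%, against 39.5% of all genes tested. In this list 0 fell (0 also at an unadjusted p under 0.05, by DESeq2 and by limma-voom). The median log2 fold change was 0.06. Nrf1, which encodes a transcription factor of mitochondrial genes, had 28.1, 29.1 and 30.4 CPM in control and 39.0, 37.9 and 36.3 CPM in fed libraries, a log2 fold change of 0.37 ± 0.055 (adjusted p = 1.7e-05). Citrate synthase (Cs) had 303, 323 and 328 CPM in control and 350, 353 and 351 CPM in fed libraries (log2 fold change 0.14, adjusted p = 0.00403), and Polg, the polymerase of mitochondrial DNA, rose by 0.21 (adjusted p = 0.00081). Polg2, its accessory subunit, rose by 0.49 from a low level, with an adjusted p of 0.039. That p was 0.138, 0.0831 and 0.222 when control replicate 1, control replicate 2 and fed replicate 3 were left out in turn, and 0.137 by DESeq2 and 0.0559 by limma-voom. Tfam, which packages mitochondrial DNA, and the outer membrane genes Tomm20 and Vdac1 were at 0.05, -0.03 and 0.03 on the log2 scale and did not pass (adjusted p = 0.504, 0.611 and 0.562).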

How the data were processed

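Polyadenylated RNA of 3 control and 3 fed libraries was sequenced. The authors deposited raw counts, 1 row per gene symbol. Per the submitters' processing notes, the tools were Trimmomatic 0.36, STAR 2.6.0c, featureCounts in Subread 1.6.1 and MultiQC 1.5, on GRCm38. Which annotation and strand setting were used, and how reads matching several genes were treated, is not given in the sources used here. The test was edgeR 4.0.16 in R 4.3.3 (filterByExpr, TMM, robust quasi-likelihood F-test, no replicate block), checked on simulated counts, with p-values adjusted over all 13092 genes tested. All genes in the simulated counts had the same variability beyond sampling noise, so the check did not cover differences in spread between genes. Standard errors and 95% intervals derive from the F statistic. Alternatives were other normalizations and filters, DESeq2 1.42.0, limma-voom (limma 3.58.1), no robust estimation, a replicate block and each library left out. Whether a group's libraries are separate cultures or animals is not stated in the labels, and p-values then measure only the spread between these libraries, which may be technical. Libraries of a group differed by more than sampling noise. Positions and exon lengths come from GENCODE M21, in which all 10 symbols matched. The list of genes that act on DRP1 or MFF is given without 2 of its genes, which are not reported here. The members, gene lists and motifs were chosen with earlier results of these data known. By rule the text names every member, up to 4 called genes per list by smallest adjusted p, and the 5 genes most correlated with the member that changed most. Genes named as not passing, named markers, Akap1, Prkaa2 and Ppp3ca were chosen after their values were seen, as were 3 of the 6 ratios (Dnm1l to Opa1, Oma1 to Opa1 and Mtfr2 to Dnm1l).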

Additional observations from a re-analysis of the deposited data

How the results depend on the processing

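Mtfr2, Oma1 and Mtfr1 stayed higher with an adjusted p under 0.05 in all 14 alternatives. Across the 6 fits that leave out 1 library their log2 fold changes ran from 0.69 to 0.84, from 0.34 to 0.42 and from 0.16 to 0.22. Mfn2 ran from 0.088 to 0.15 in those fits and lost its call in 3 of them, and by DESeq2 it was 0.12 with an adjusted p of 0.0597. The number of members higher was 3 or 4 and the number lower 0 in every alternative. Members that did not pass stayed so in all 14 alternatives. Mief1 stayed lower and Mfn1 higher in all of them, and the sign of Dnm1l, Fis1, Mff and Opa1 changed in some. With library totals only, Dnm1l was 0.0089 and Mff 0.029, and with all genes of at least 1 count Mff was 0.0068. Leaving out 1 library moved Dnm1l between -0.051 and 0.0068, Fis1 between -0.062 and 0.019, Mff between -0.028 and 0.028 and Opa1 between -0.012 and 0.073. Library totals only shifted the median of all genes by 0.03. Over all genes, 3963 to 5848 were called, the lowest by DESeq2. With the replicate number as a block, 5848 genes were called against 5175 and the members higher stayed at 4. The main fit has no block because the labels name no pairing. Deviations of same-numbered libraries correlated at 0.149, 0.0226 and 0.134, and each library correlated best with its own number. Whether the numbers pair the libraries was not settled. Depth sets the precision for Mtfr2 and Oma1, whose counts per library were the lowest of the 10.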
